A study of Triticum aestivum with 24 samples.

Results

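In leaves of the bread wheat cultivar Chinese Spring (Triticum aestivum), 18 transcripts were present in all control libraries and close to absent in heat-treated leaves on the last day of a heat treatment. They were chosen as the transcripts with at least 4 CPM (the estimated count of a transcript divided by the total of its library, times 1000000) in each of the 4 control libraries at 0 days after treatment (DAT) and a mean under 0.2 CPM over the 4 heat libraries of that day. The 18 transcripts came from 18 genes, among 137056 transcripts of 110790 genes in the table. They were 0.0911% of the 19769 transcripts that met the control condition. The contrast at 0 DAT therefore chose them, and its values are given below as a description with no test. What happened to the transcripts at 1 and 4 DAT was not used in the choice, although the leaves of those days came from the same plants.

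RNA-seq was done on 24 leaf libraries in 6 groups of 4. Heat-treated plants were kept at 37 °C for 5 days from the boot stage, watered against drought, and then returned to the control regime of 16 h light at 18 °C and 8 h dark at 16 °C, which control plants never left. All plants were grown from selfed seed of a single Chinese Spring plant, so that both treatments shared one genotype, and no transgene or mutant was involved. The 144 plants, 72 per treatment, each gave a leaf at 0, 1 and 4 DAT, and the study's methods describe pools of 18 plants per replicate for its small RNA libraries, from which the pools of the RNA-seq libraries were inferred through their labels.

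Leaves answer high temperature by raising heat shock factors and chaperones, while many transcripts of growth and primary metabolism are lowered through reduced transcription and faster RNA decay. After return to a mild temperature, some transcripts come back within a day and others stay low for longer. Heat also changes splicing, so that 1 transcript of a gene can be replaced by another without loss of the gene's total. Bread wheat is hexaploid, with A, B and D subgenomes whose gene copies are often nearly identical, and reads that fit several copies are divided among them by pseudoalignment. In bulk leaf RNA, a lower level can mean fewer cells of a type or less RNA per cell, and these cannot be told apart.

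No biological function can be given for the 18 transcripts. None had a text in the study's table of microRNA targets, and none of their gene IDs matched the reference gene table, so that no name, sequence or coordinates are given here. Leaf marker genes could not be checked for the same reason. Each ID names a chromosome, and by it 5 of the 18 lay on the A, 7 on the B and 6 on the D subgenome, against 32.6%, 32.9% and 33.1% of the 19769 transcripts with at least 4 CPM in every control library at 0 DAT. Chromosomes 2A, 2B and 2D held 7 of them, where 16% of those transcripts lay, and chromosome groups 1 and 3 held none, where 13.5% and 15.2% lay. The counts are too small to read more from them, and no test was made. Whether members on different subgenomes are copies of 1 gene was not tested either. Transcript levels are not compared between genes, since transcript lengths were not used.

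Libraries had 5403461 to 16112270 counts in total, so that 1 transcript at 3 counts stood at 0.186 to 0.555 CPM in a library. Levels under that are read here as close to absent and not as graded. A single transcript, TraesCS1A01G000100.1, took 3.67% to 6.95% of the counts in 4 libraries and under 1% in the other 20. These 4 libraries were heat 1 DAT replicate 3, control 4 DAT replicate 2 and heat 4 DAT replicates 2 and 4, and results that rest on them are given with and without them. Between 9.09% and 100% of the nonzero values of each of the 18 transcripts were not whole numbers, which marks reads shared with other transcripts, and the replicate spread does not contain that uncertainty. This held for over 90% of the values of 8 transcripts.

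At 0 DAT the summed level of the 18 transcripts was 163 to 216 CPM in the control libraries and 1.34 to 2.53 CPM in the heat libraries. The highest control mean was that of TraesCS5B01G462800.1, with 31.5, 17.7, 15.5 and 9.6 CPM in control replicates 1 to 4 and 0.188, 0.159, 0.121 and 0.302 CPM in heat. TraesCS2A01G156800.2 had 14.5, 12.8, 13.8 and 14.3 CPM in control and no count in any heat library. Its control libraries lay close together, and with a floor of 3 counts over the heat group its control level was at least 209-fold higher. TraesCS4B01G398400.3 was the other transcript at 0 in all 4 heat libraries, with 4.27 to 7.83 CPM in control, at least 87.8-fold higher. Of the remaining 16, each had a count in at least 1 heat library.

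The limits of the rule ran through neighbouring values. Just inside the control limit were TraesCS2D01G399000.1 and TraesCS4B01G398400.3, whose lowest control libraries stood at 4.05 and 4.27 CPM, and just outside were TraesCS6B01G091500.1 and TraesCS3D01G113100.4, at 3.91 and 3.47 CPM. Just inside the heat limit were TraesCS2B01G032300.2 and TraesCS5B01G462800.1, with heat means of 0.196 and 0.193 CPM, and just outside were TraesCS5D01G488900.1 and TraesCS7D01G199400.1, with 0.259 and 0.262 CPM.

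**Figure D1:**
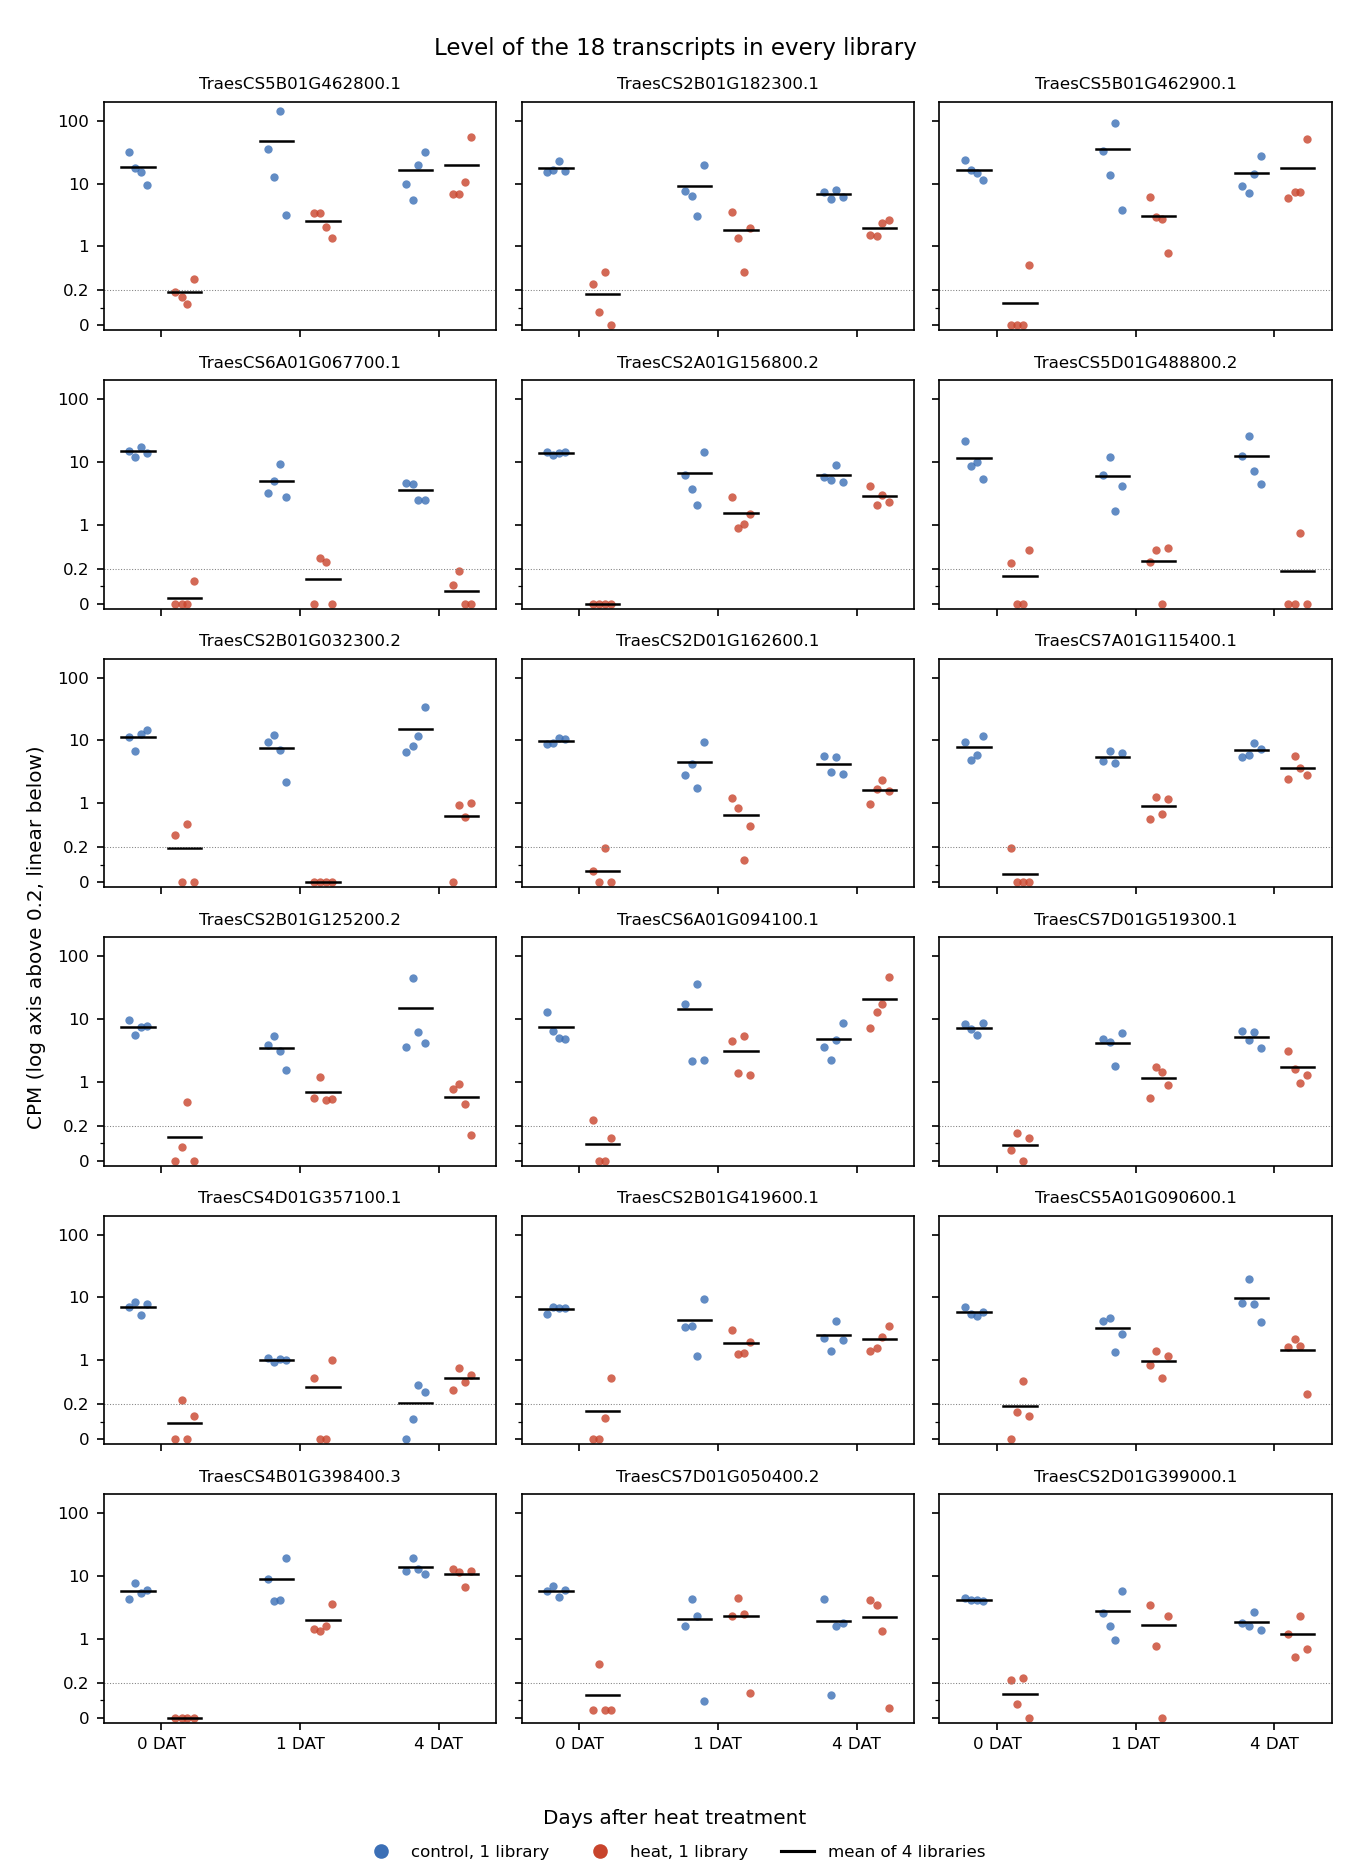
Each panel shows 1 of the 18 transcripts, with CPM in every library on the vertical axis (a log axis above 0.2 CPM and linear below) and days after heat treatment on the horizontal axis. Points are libraries, blue for control and red for heat, black lines are means of 4 libraries, and the dotted line is the 0.2 CPM of the rule; at 4 DAT the red points of TraesCS6A01G067700.1 still lie below 0.2 CPM while those of TraesCS4B01G398400.3 overlap the control points.

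After 1 day of recovery the mean level in heat was above 0.2 CPM for all but 2 of the 18 transcripts, and below control for most of them. Heat at 0 and 1 DAT was not compared by a test, since the former chose the transcripts. Heat was called lower than control for 13 of 18 and higher for none (edgeR quasi-likelihood test with Benjamini-Hochberg adjustment over all transcripts, adjusted p under 0.05), where 6.18% of the 54517 tested transcripts were called lower and 7.32% higher. With total counts in place of TMM scaling 11 of 18 were called, with 2.21% of all tested transcripts lower and 5.76% higher. The median log2 fold change of heat against control was -2.34 over the 18 and -0.04 over all tested transcripts, and it was the same with TraesCS2B01G032300.2, at 0 in heat, placed at its bound. In mean CPM, heat stood at 0% to 112% of control, with a median of 20.8%. In 8 of 18 every heat library lay below every control library, which held for 3.09% of the transcripts tested. Without the 4 libraries with much TraesCS1A01G000100.1, of which 1 was from this day, the count of calls was also 13. In that fit 2273 of all 61524 tested transcripts were called lower. In the fit of all 24 libraries, all 18 passed the filter on low counts. TraesCS4D01G357100.1 did so only through other groups, and was not tested with the libraries of 1 DAT or of 4 DAT alone.

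TraesCS2B01G032300.2 had no count in any of the 4 heat libraries at 1 DAT, against 9.49, 12, 7.17 and 2.19 CPM in control replicates 1 to 4. With a floor of 3 counts over the heat group, control was at least 101-fold higher (adjusted p = 0.000399, edgeR). At 0 DAT it had 0.31 and 0.473 CPM in 2 of the 4 heat libraries and 0 in the others.

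TraesCS6A01G067700.1 remained the other transcript under a mean of 0.2 CPM at 1 DAT. Its heat libraries held 0, 0.297, 0.257 and 0 CPM and its control libraries 3.16, 4.96, 9.43 and 2.74 CPM. All 4 heat libraries lay below the lowest control library, with a log2 fold change of -5.42 (SE 0.74, adjusted p = 4.67e-05, edgeR). TraesCS5D01G488800.2 was at 0.253, 0.396, 0 and 0.428 CPM in heat and at 6.21, 11.8, 1.63 and 4.2 CPM in control. Here the log2 fold change was -4.44 (SE 0.84, adjusted p = 0.00115, edgeR), and the groups did not overlap either.

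Others stood between near absence and control at 1 DAT. TraesCS7A01G115400.1 had 0.557, 1.26, 0.676 and 1.15 CPM in heat and 4.77, 6.79, 4.38 and 6.21 CPM in control. Its log2 fold change was -2.67 (SE 0.39, adjusted p = 0.000101, edgeR). TraesCS2D01G162600.1 had 1.22, 0.83, 0.129 and 0.428 CPM in heat and 2.8, 4.27, 1.72 and 9.6 CPM in control, with a log2 fold change of -2.66 (SE 0.48, adjusted p = 0.000799, edgeR). For both, the lowest control library stood above the highest heat library.

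TraesCS2B01G182300.1 and TraesCS2A01G156800.2 were called lower with overlapping libraries. TraesCS2B01G182300.1 had 3.49, 1.35, 0.386 and 1.93 CPM in heat and 7.66, 6.3, 3.05 and 20 CPM in control (log2 fold change -2.25, SE 0.44, adjusted p = 0.00174, edgeR). TraesCS2A01G156800.2 had 2.78, 0.892, 1.03 and 1.5 CPM in heat and 6.17, 3.74, 2.09 and 14.4 CPM in control (log2 fold change -1.95, SE 0.39, adjusted p = 0.00272, edgeR). With only the libraries of 1 DAT in the fit, TraesCS2A01G156800.2 was not called (adjusted p = 0.055, edgeR). In both transcripts, as in TraesCS2D01G162600.1, control replicate 4 was the highest and control replicate 3 the lowest. The genes 1 step after TraesCS2A01G156800 and TraesCS2D01G162600 in ID order had identical values in every library, with means of at most 0.0274 CPM. Whether these 3 transcripts are copies of 1 gene on the A, B and D subgenomes was not tested.

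The 2 neighbouring genes TraesCS5B01G462800 and TraesCS5B01G462900 were the only members next to each other in ID order. In TraesCS5B01G462800.1, heat libraries at 1 DAT had 3.44, 3.41, 2 and 1.34 CPM and control libraries 35.2, 12.9, 141 and 3.11 CPM. In TraesCS5B01G462900.1 they had 6.01, 2.9, 2.69 and 0.775 CPM in heat and 32.9, 13.5, 91.4 and 3.78 CPM in control. Control replicate 3 was by far the highest library in both, and control replicate 4 fell within the range of the heat libraries. The log2 fold changes were -4.58 (SE 1.08, adjusted p = 0.00711) and -3.79 (SE 1.02, adjusted p = 0.0163, edgeR). Without control 1 DAT replicate 3 they were -2.72 (adjusted p = 0.0527) and -2.38 (adjusted p = 0.1), and neither was called. Without heat 1 DAT replicate 4 the adjusted p of TraesCS5B01G462900.1 was 0.0566. With only the libraries of 1 DAT in the fit the adjusted p-values of the pair were 0.0553 and 0.0733 (edgeR).

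Among the other calls at 1 DAT, TraesCS2B01G125200.2 (log2 fold change -2.42, SE 0.77, adjusted p = 0.04) and TraesCS5A01G090600.1 (-1.79, SE 0.51, adjusted p = 0.0228, edgeR) passed narrowly. The first lost its call without any 1 of 7 of the 8 libraries, the exception being control replicate 4, with adjusted p-values of 0.0519 to 0.117. The second lost it without control replicates 1 or 2 or heat replicates 1, 3 or 4, with 0.0599 to 0.0775. TraesCS4B01G398400.3 (-2.17, SE 0.39, adjusted p = 0.00116) and TraesCS7D01G519300.1 (-1.85, SE 0.38, adjusted p = 0.00223, edgeR) kept their calls in each of the 8 fits without 1 library.

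The 5 transcripts not called at 1 DAT differed in how close they came to control. TraesCS7D01G050400.2 had 2.29, 4.37, 2.46 and 0.139 CPM in heat and 1.6, 4.24, 2.3 and 0.0945 CPM in control, with a log2 fold change of 0.05 (SE 0.95, adjusted p = 0.989, edgeR), whose sign depended on the library left out. The libraries of each replicate number were close to each other, and replicate 4 was near absence in both treatments. TraesCS2D01G399000.1 had log2 -0.67 (SE 0.60, adjusted p = 0.528), TraesCS2B01G419600.1 had -1.06 (SE 0.54, adjusted p = 0.214) and TraesCS6A01G094100.1 had -2.45 (SE 0.92, adjusted p = 0.0829, edgeR). These intervals are wide, and the missing calls do not show that the transcripts had returned to control.

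The fifth of them, TraesCS4D01G357100.1, left the control leaves as well. Its control libraries held 7.13, 8.36, 5.28 and 7.77 CPM at 0 DAT, 1.07, 0.923, 1.05 and 0.993 CPM at 1 DAT and 0, 0.116, 0.404 and 0.312 CPM at 4 DAT. The ranges of the 3 days did not overlap. Heat libraries were at 0 to 0.999 CPM at 1 DAT and at 0.338 to 0.753 CPM at 4 DAT, so that there was little control level left to return to.

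Such a drift of the control level was seen in most of the 18, though to a smaller extent. The mean control level was below that of 0 DAT in 14 of 18 at 1 DAT and in 13 of 18 at 4 DAT, with medians of 56.5% and 67.8% of the 0 DAT level. Over the 19769 transcripts with at least 4 CPM in every control library at 0 DAT the medians were 95.9% and 103%. Of the 18, only TraesCS7A01G115400.1 again had at least 4 CPM in all control libraries at 1 DAT, and 9 had at 4 DAT, against 82.9% and 88.3% of those transcripts. The 18 had started nearer to that limit, with a median 0 DAT control mean of 7.78 CPM against 12.2 CPM. The part of this in the counts was not tested. The 18 had been chosen on the 0 DAT control libraries, and the part of that choice in the drift was not tested. Between 1 and 4 DAT within control none of the 18 was called (edgeR quasi-likelihood test, with 4 at an unadjusted p under 0.05). Of all tested transcripts, 0% were called in that test. DESeq2 and edgeR's likelihood ratio test called none of the 18 either. TraesCS4D01G357100.1 passed the filter on low counts only through other groups and was not tested with the libraries of this contrast alone.

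**Figure D2:**
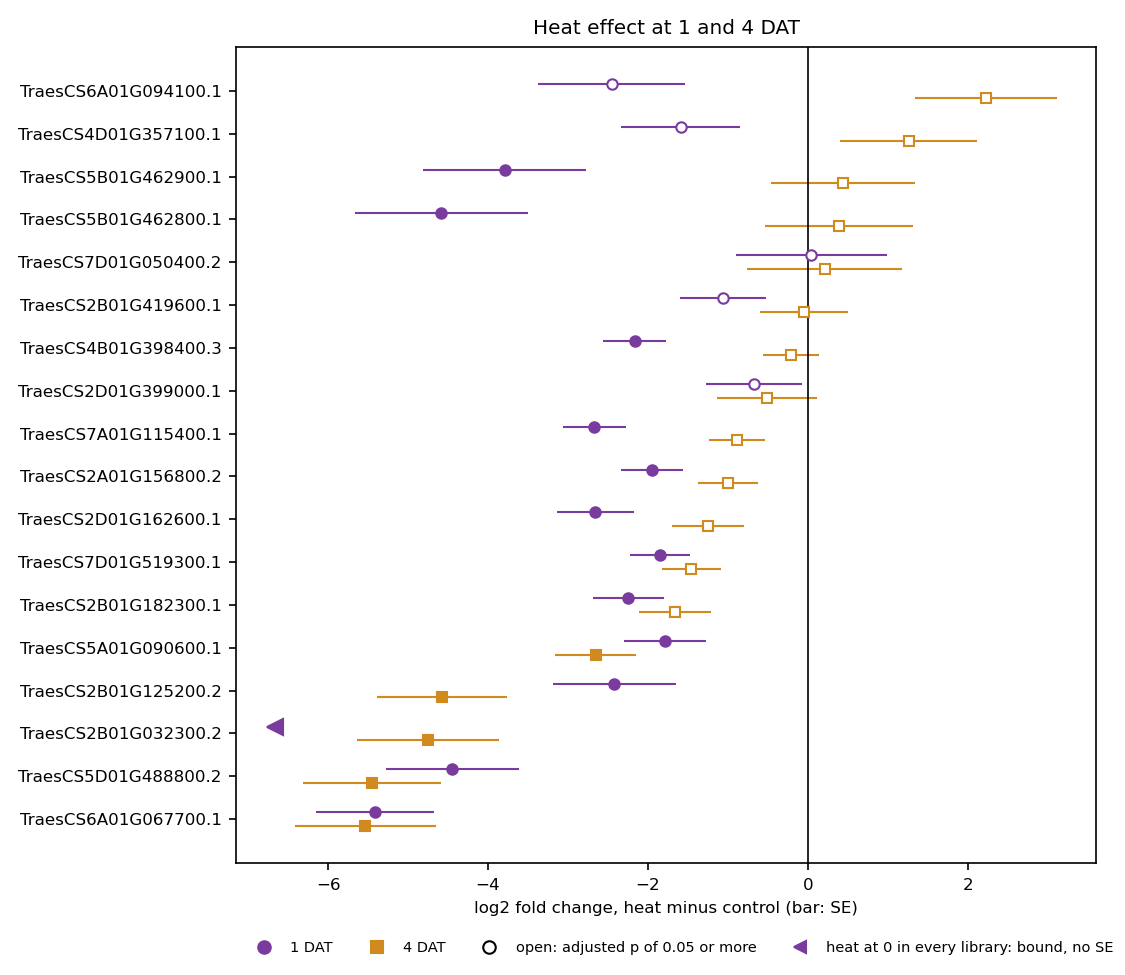
The log2 fold change of heat against control (horizontal axis, bars are SE) is shown for each of the 18 transcripts at 1 DAT (purple circles) and 4 DAT (orange squares), with filled symbols for an adjusted p under 0.05. At 4 DAT 5 filled squares remain on the left, from -2.65 to -5.53, and the arrow marks TraesCS2B01G032300.2 at 1 DAT, where heat was at 0 in all libraries and control at least 101-fold higher.

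After 4 days of recovery 5 of the 18 transcripts were still called lower in heat and none higher. Few transcripts of the whole table were: 0.11% of those tested were lower and 0.0697% higher at 4 DAT. With total counts in place of TMM scaling 4 of the 18 were called, with 0.0935% of all tested transcripts lower and 0.0165% higher. The median log2 fold change over the 18 was -0.94, and -0.004 over all tested transcripts. In 9 of 18, every heat library was below every control library, which was so for 2.35% of all tested transcripts. Sorted by mean level, 2 were still under 0.2 CPM in heat, 7 were between that and 50% of control, 7 were at 50% to 200% and 2 were above 200%. The 2 above 200% were TraesCS6A01G094100.1 and TraesCS4D01G357100.1, and the latter stood at a mean of 0.208 CPM in control and 0.531 CPM in heat, levels of a few counts at which a ratio says little. At 1 DAT the counts in these classes had been 2, 14, 2 and 0. Of the 19769 transcripts with at least 4 CPM in every control library at 0 DAT, 0.0152%, 1.81%, 97.8% and 0.359% were in these classes at 4 DAT. At 1 DAT the shares had been 0.0101%, 4.62%, 89.9% and 5.5%.

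The 2 transcripts still near absence were TraesCS6A01G067700.1 and TraesCS5D01G488800.2. TraesCS6A01G067700.1 had 0.109, 0.187, 0 and 0 CPM in the heat libraries of 4 DAT and 4.69, 4.49, 2.47 and 2.52 CPM in the control libraries (log2 fold change -5.53, SE 0.88, adjusted p = 0.0126, edgeR). Over all 3 days no heat library held more than 0.297 CPM of it. TraesCS5D01G488800.2 had 0, 0, 0.75 and 0 CPM in heat and 12.4, 25.6, 7.07 and 4.54 CPM in control (log2 fold change -5.45, SE 0.86, adjusted p = 0.0126, edgeR). Its control level was back at 109% of that of 0 DAT, while heat was above 0 in 1 library.

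TraesCS2B01G032300.2, at 0 in every heat library at 1 DAT, had counts in 3 of 4 at 4 DAT, with 0, 0.925, 0.613 and 1.01 CPM against 6.55, 8.17, 11.7 and 34.5 CPM in control (log2 fold change -4.75, SE 0.88, adjusted p = 0.0372, edgeR). TraesCS2B01G125200.2 had 0.76, 0.925, 0.438 and 0.145 CPM in heat and 3.61, 45.1, 6.09 and 4.07 CPM in control (log2 fold change -4.58, SE 0.82, adjusted p = 0.0261, edgeR). TraesCS5A01G090600.1 had 1.63, 2.19, 1.66 and 0.29 CPM in heat and 8.16, 19.3, 7.92 and 4.04 CPM in control (log2 fold change -2.65, SE 0.50, adjusted p = 0.0343, edgeR). The heat and control libraries did not overlap in any of the 5. In TraesCS5D01G488800.2 and in the last pair, control replicate 2, 1 of the libraries with much TraesCS1A01G000100.1, was the highest.

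These 5 calls rested on the full set of libraries. Without the 4 libraries with much TraesCS1A01G000100.1, which left 3 control and 2 heat libraries at 4 DAT, none of the 5 was called, with log2 fold changes of -2.08 to -6.02 and adjusted p-values of 0.189 to 0.326. Without heat 4 DAT replicates 1, 2, 3 or 4 the count was 0, 1, 1 and 2, and without control 4 DAT replicate 2 it was 3. Over all tested transcripts, 6, 6, 26 and 26 were called lower without these heat replicates. The number was 33 without that control replicate and 60 in the full fit. TraesCS2B01G125200.2 was not called without control 4 DAT replicate 2, its highest library, with a log2 fold change of -3.00 (adjusted p = 0.064), and TraesCS5A01G090600.1 was at -2.15 there (adjusted p = 0.112). TraesCS2B01G032300.2 was at -3.61 without control 4 DAT replicate 4, its highest library (adjusted p = 0.0786), and TraesCS5A01G090600.1 was not called without control 4 DAT replicate 1 either (adjusted p = 0.0617). With only the 8 libraries of 4 DAT in the fit the count was 0, with adjusted p-values of 0.0702 to 0.282. In that fit 0 of all 41740 tested transcripts were called lower, and without the 4 libraries 1 of 61524. The lost calls were therefore not particular to these 5. The sign was negative for all 5 in each of these fits.

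Another 4 transcripts were lower in every heat than in every control library at 4 DAT without passing the test. TraesCS2B01G182300.1 had 1.52, 1.48, 2.32 and 2.61 CPM in heat and 7.33, 5.71, 7.84 and 6.08 CPM in control (log2 fold change -1.66, SE 0.45, adjusted p = 0.159, edgeR). TraesCS7D01G519300.1 had 0.973 to 3.07 CPM in heat and 3.48 to 6.38 CPM in control (log2 fold change -1.46, SE 0.37, adjusted p = 0.118, edgeR). Both were called by DESeq2 (adjusted p = 0.0205 and 0.00271) and by edgeR's likelihood ratio test (0.0354 and 0.00759). TraesCS2A01G156800.2 and TraesCS2D01G162600.1 stood at 46.5% and 38.4% of control, with log2 fold changes of -0.996 (SE 0.38, adjusted p = 0.398) and -1.25 (SE 0.45, adjusted p = 0.361, edgeR).

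None of the remaining 9 transcripts was called at 4 DAT, and their libraries overlapped between heat and control. TraesCS7A01G115400.1 had 2.43, 5.59, 3.6 and 2.84 CPM in heat and 5.45, 5.91, 9.26 and 7.38 CPM in control, or 51.6% of control in the mean (log2 fold change -0.88, SE 0.35, adjusted p = 0.421, edgeR). TraesCS2D01G399000.1 stood at 64%, TraesCS4B01G398400.3 at 78.9%, TraesCS2B01G419600.1 at 88.2% and TraesCS7D01G050400.2 at 115% of control. TraesCS5B01G462800.1 had 6.74, 6.71, 10.7 and 54.6 CPM in heat and 9.84, 5.56, 19.4 and 31.5 CPM in control, with a log2 fold change of 0.39 (SE 0.92, adjusted p = 0.967, edgeR). TraesCS5B01G462900.1 had 5.97, 7.42, 7.41 and 50.5 CPM in heat and 9.09, 6.95, 14.3 and 27.9 CPM in control. Heat replicate 4 alone put both above control, and without it the log2 fold changes were -1.20 and -1.23 (adjusted p = 0.774 and 0.751). The same library was the highest of TraesCS6A01G094100.1, with 7.06, 13, 17 and 45.9 CPM in heat against 3.64, 2.19, 4.55 and 8.54 CPM in control, a log2 fold change of 2.22 (SE 0.89, adjusted p = 0.422, edgeR). It was 1.23 (adjusted p = 0.74) without heat replicate 4, 2.95 (adjusted p = 0.323) without control replicate 4 and 0.84 (adjusted p = 0.906) without the 4 libraries with much TraesCS1A01G000100.1. Heat replicate 4 was also 1 of the libraries with much TraesCS1A01G000100.1, and the part of that in these values was not tested.

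Within the heat-treated plants, 2 of the 18 transcripts were called higher at 4 than at 1 DAT and none lower, where 2.7% of all tested transcripts were higher and 4.19% lower. With total counts in place of TMM scaling 2 of the 18 were also called, with 0.662% of all tested transcripts higher and 3.13% lower. TraesCS4B01G398400.3 rose from 1.42, 1.33, 1.62 and 3.58 CPM to 13, 11.7, 6.75 and 12.1 CPM (log2 fold change 2.56, SE 0.39, adjusted p = 0.000844, edgeR). TraesCS7A01G115400.1 rose from 0.557 to 1.26 CPM at 1 DAT to 2.43, 5.59, 3.6 and 2.84 CPM (log2 fold change 2.00, SE 0.40, adjusted p = 0.00416, edgeR). In both, every library of 4 DAT lay above every library of 1 DAT. Without the 4 libraries with much TraesCS1A01G000100.1 the values were 2.26 (adjusted p = 0.0351) and 1.54 (adjusted p = 0.116), so that only the first was still called. In that fit 307 of all 61524 tested transcripts were higher and 750 lower. DESeq2 and the likelihood ratio test called 5 each, adding TraesCS5B01G462800.1, TraesCS2B01G032300.2 and TraesCS6A01G094100.1, where 4.52% and 3.64% of all tested transcripts were higher. TraesCS6A01G067700.1, TraesCS5D01G488800.2, TraesCS2B01G032300.2, TraesCS2B01G125200.2 and TraesCS4D01G357100.1 passed the filter on low counts only through other groups. They were not tested with the libraries of this contrast alone.

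The difference of the heat effect between both recovery days was tested in the same model. None of the 18 was called (edgeR quasi-likelihood test, with 7 at an unadjusted p under 0.05), where 0.312% of all tested transcripts had a higher and 1.55% a lower effect at 4 DAT. With total counts in place of TMM scaling none of the 18 was called, and 0.0312% of all tested transcripts had a higher and 1.32% a lower effect. DESeq2 and edgeR's likelihood ratio test each called 5, all with a higher value at 4 DAT, where 1.13% and 0.77% of all tested transcripts were higher. These were TraesCS5B01G462800.1, TraesCS7A01G115400.1, TraesCS6A01G094100.1, TraesCS4D01G357100.1 and TraesCS4B01G398400.3, whose adjusted p-values in the quasi-likelihood test were 0.0747, 0.089, 0.0653, 0.241 and 0.0649. TraesCS4D01G357100.1 did not pass the filter on low counts with the libraries of this contrast alone. Without control 1 DAT replicates 2 or 4 or control 4 DAT replicate 4 the quasi-likelihood test called 2 each, and without heat 4 DAT replicate 3 it called 1. In these fits, in the same order, 121, 60, 133 and 88 of all 56743 to 56984 tested transcripts had a higher effect. A lower effect was called for 668, 628, 845 and 633.

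Near absence of a transcript can leave its gene expressed through another transcript, and only the 7 of the 18 genes with more than 1 transcript could show this. In 6 of these 7 the sum over all transcripts of the gene in heat at 0 DAT was 0% to 7.71% of control. The exception was TraesCS4B01G398400, with 6 transcripts in the table, whose sum was 19.6 CPM in control and 24.1 CPM in heat, or 123%. Of the 19769 transcripts, 32.8% came from genes with more than 1 transcript. Of the members, 6 carried a transcript number above 1, where 16.9% did.

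In TraesCS4B01G398400 the transcript numbered 3, the member, held 29.7% of the gene's level in control at 0 DAT. The transcript numbered 2 had 3.76, 4.57, 2.89 and 2.5 CPM in control and 15.7, 13.1, 11.4 and 14.5 CPM in heat on that day, with no overlap. The transcripts numbered 5 and 6 had means of 4.11 and 6.07 CPM in control and 3.92 and 5.98 CPM in heat. At 1 DAT transcript 2 was at 2.75 to 6.44 CPM in heat and 3.3 to 7.47 CPM in control, and member transcript 3 was at 1.33 to 3.58 CPM in heat. At 4 DAT transcript 3 stood at 6.75 to 13 CPM in heat and 10.8 to 19.5 CPM in control, a log2 fold change of -0.21 (SE 0.35, adjusted p = 0.939, edgeR). The sum of the gene was lower in heat at 1 DAT (log2 fold change -0.79, SE 0.14, adjusted p = 0.000525) and at -0.01 (SE 0.14, adjusted p = 0.996) at 4 DAT. All values of transcript 3 were fractional, so that its reads were divided between transcripts by the estimate, and the division between the 6 is less certain than their sum.

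**Figure D3:**
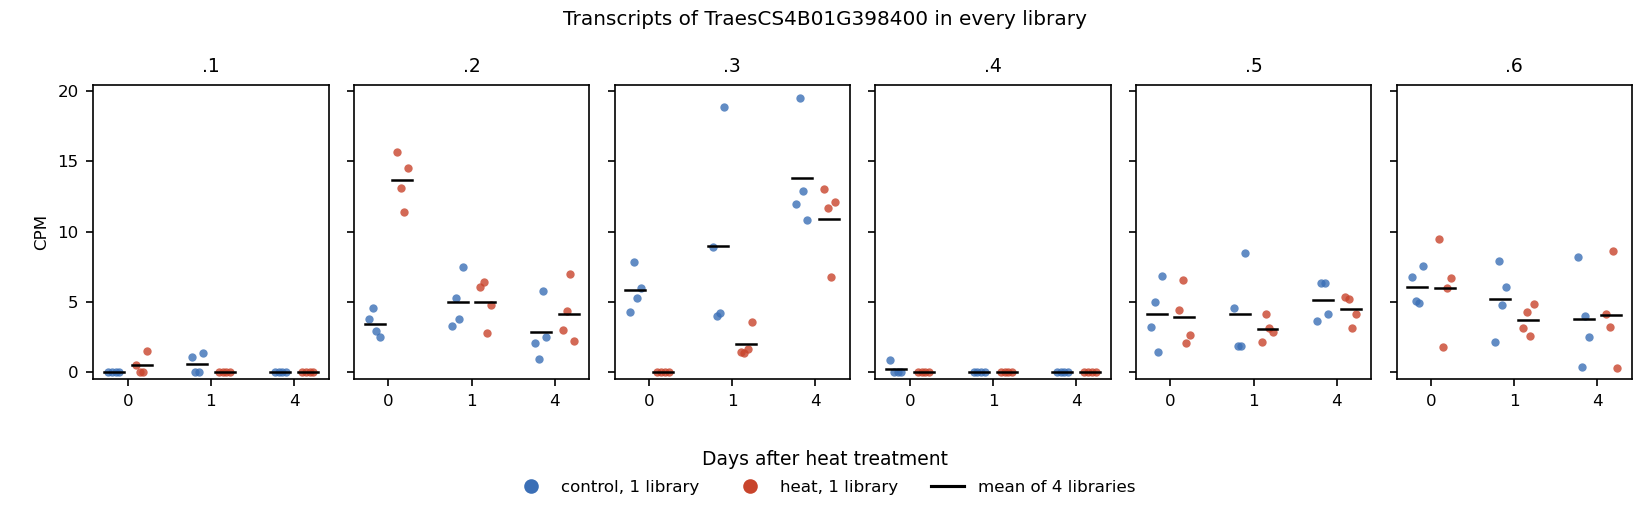
CPM (vertical axis) of the 6 transcripts of TraesCS4B01G398400 by days after heat treatment (horizontal axis), with a panel per transcript number, blue points for control and red for heat libraries and black lines for means of 4. At 0 DAT transcript 3 is at 0 in heat while transcript 2 is at 11.4 to 15.7 CPM, and by 4 DAT transcript 3 in heat overlaps control.

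In the other genes with several transcripts, the second transcript was low in both treatments. In heat at 0 DAT it stood at a mean of 0.333 CPM for TraesCS7D01G050400, 0.184 CPM for TraesCS4D01G357100, 0.168 CPM for TraesCS2B01G032300 and 0.0887 CPM for TraesCS5D01G488800, with controls at 0.259, 0, 0.407 and 1.23 CPM. None of them made up for the member. With counts summed per gene, 14 of the 18 genes were called lower at 1 DAT, where 9.16% of 47489 tested genes were lower and 10.7% higher. TraesCS4D01G357100 was added to the 13 (log2 fold change -1.26, SE 0.43, adjusted p = 0.0415, edgeR). Its member did not pass the filter on low counts with the libraries of 1 DAT alone, and whether the gene sum would was not tested. At 4 DAT 5 of the 18 were called lower, against 0.274% of genes, and these were the genes of the 5 transcripts called.

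The genes next to the 18 in ID order were then examined up to 5 steps on each side, a step chosen after their values had been seen. IDs follow the order of genes on a chromosome, but no distances are known here. Genes with identical values in every library were counted once, which left 167 such genes outside the 18, of which 84 were tested. At 1 DAT 17.9% of these were called lower and 7.14% higher, beside 9.16% and 10.7% of all genes. At 4 DAT 7.14% were called lower and 0% higher, beside 0.274% and 0.158% of all genes. The 15 neighbours called lower at 1 DAT lay around 5 members, with the pair TraesCS5B01G462800 and TraesCS5B01G462900 counted as 1. Of these 15, 5 lay in a single stretch of chromosome 5D. The 6 neighbours called at 4 DAT lay around 3 members, and 4 of them in the same stretch.

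That stretch ran from TraesCS5D01G488300 to TraesCS5D01G488900 and held the member TraesCS5D01G488800. At 0 DAT the mean levels of its 6 other genes were 2.16 to 10.9 CPM in control and 0.00965 to 0.513 CPM in heat. At 4 DAT they were 4.92 to 14.8 CPM in control and 0.0633 to 0.587 CPM in heat. TraesCS5D01G488500 had 4.68 to 31.1 CPM in control and 0 to 1.23 CPM in heat at 4 DAT (log2 fold change -4.32, SE 0.75, adjusted p = 0.0114, edgeR), and TraesCS5D01G488900 had 4.55 to 29.8 CPM and 0.29 to 0.652 CPM (log2 fold change -4.60, SE 0.73, adjusted p = 0.00555, edgeR). Only TraesCS5D01G488400 missed the test at 4 DAT (log2 fold change -5.96, SE 1.62, adjusted p = 0.136), with a control library at 0. All 6 had been called lower at 1 DAT.

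The low levels in heat did not extend to the next gene after TraesCS5D01G488900. This gene, TraesCS5D01G489000, stood at 7.76 CPM in control at 0 DAT and at 8.52 CPM in heat, with log2 fold changes of -0.72 (SE 0.43, adjusted p = 0.247) at 1 DAT and -0.16 (SE 0.45, adjusted p = 0.947, edgeR) at 4 DAT. Further on, TraesCS5D01G489100 (log2 fold change -0.67, adjusted p = 0.00993) and TraesCS5D01G489300 (-1.13, adjusted p = 0.0434, edgeR) were called lower at 1 DAT. TraesCS5D01G489200 was not called at 1 DAT, and none of these genes was called at 4 DAT. TraesCS5D01G488600 and TraesCS5D01G488700 had the same values in every library and count as 1 observation. TraesCS5D01G488300 and TraesCS5D01G488400 had the same mean in heat at 0 DAT (0.00965 CPM) and at 1 DAT (0.04 CPM). In control at 0 DAT they differed, with 5.85 and 2.16 CPM. How far the genes of the stretch share reads was not tested. Of the nonzero values of TraesCS5D01G488800.2, 55.6% were not whole numbers. The start of the stretch was not determined, since TraesCS5D01G488300 was the last gene within 5 steps.

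Neighbours of the 5B pair and of TraesCS6A01G094100 were low in heat at 0 DAT and not called at 4 DAT. Next to the 5B pair, TraesCS5B01G463000 and TraesCS5B01G463100 had means of 123 and 169 CPM in control and 4.16 and 15.4 CPM in heat at 0 DAT. Their log2 fold changes were -2.14 (SE 0.62, adjusted p = 0.0165) and -1.46 (SE 0.48, adjusted p = 0.0337) at 1 DAT and 0.22 (SE 0.59, adjusted p = 0.943) and 0.51 (SE 0.47, adjusted p = 0.766, edgeR) at 4 DAT. After TraesCS6A01G094100, the 5 genes TraesCS6A01G094200 to TraesCS6A01G094600 had means of 46.4 to 280 CPM in control and 1.42 to 49.8 CPM in heat at 0 DAT, and 38.6 to 212 CPM and 49.2 to 250 CPM at 4 DAT. None of these 5 was called at 1 or 4 DAT.

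Of the other neighbours called at 4 DAT, TraesCS2B01G031900 lay 4 steps from TraesCS2B01G032300. It had 10.2 to 13.9 CPM in control and 2.25 to 4.63 CPM in heat (log2 fold change -1.92, adjusted p = 0.0116, edgeR). TraesCS2B01G124800 lay 4 steps from TraesCS2B01G125200, with 2.19 to 35.2 CPM in control and 0.145 to 0.652 CPM in heat (log2 fold change -4.88, adjusted p = 0.0369, edgeR). Next to TraesCS7D01G050400, TraesCS7D01G050500 was at 16.7 CPM in control and 0.467 CPM in heat at 0 DAT and still lower at 1 DAT (log2 fold change -2.54, adjusted p = 0.00388, edgeR), at which time the member itself was not called.

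**Figure D4:**
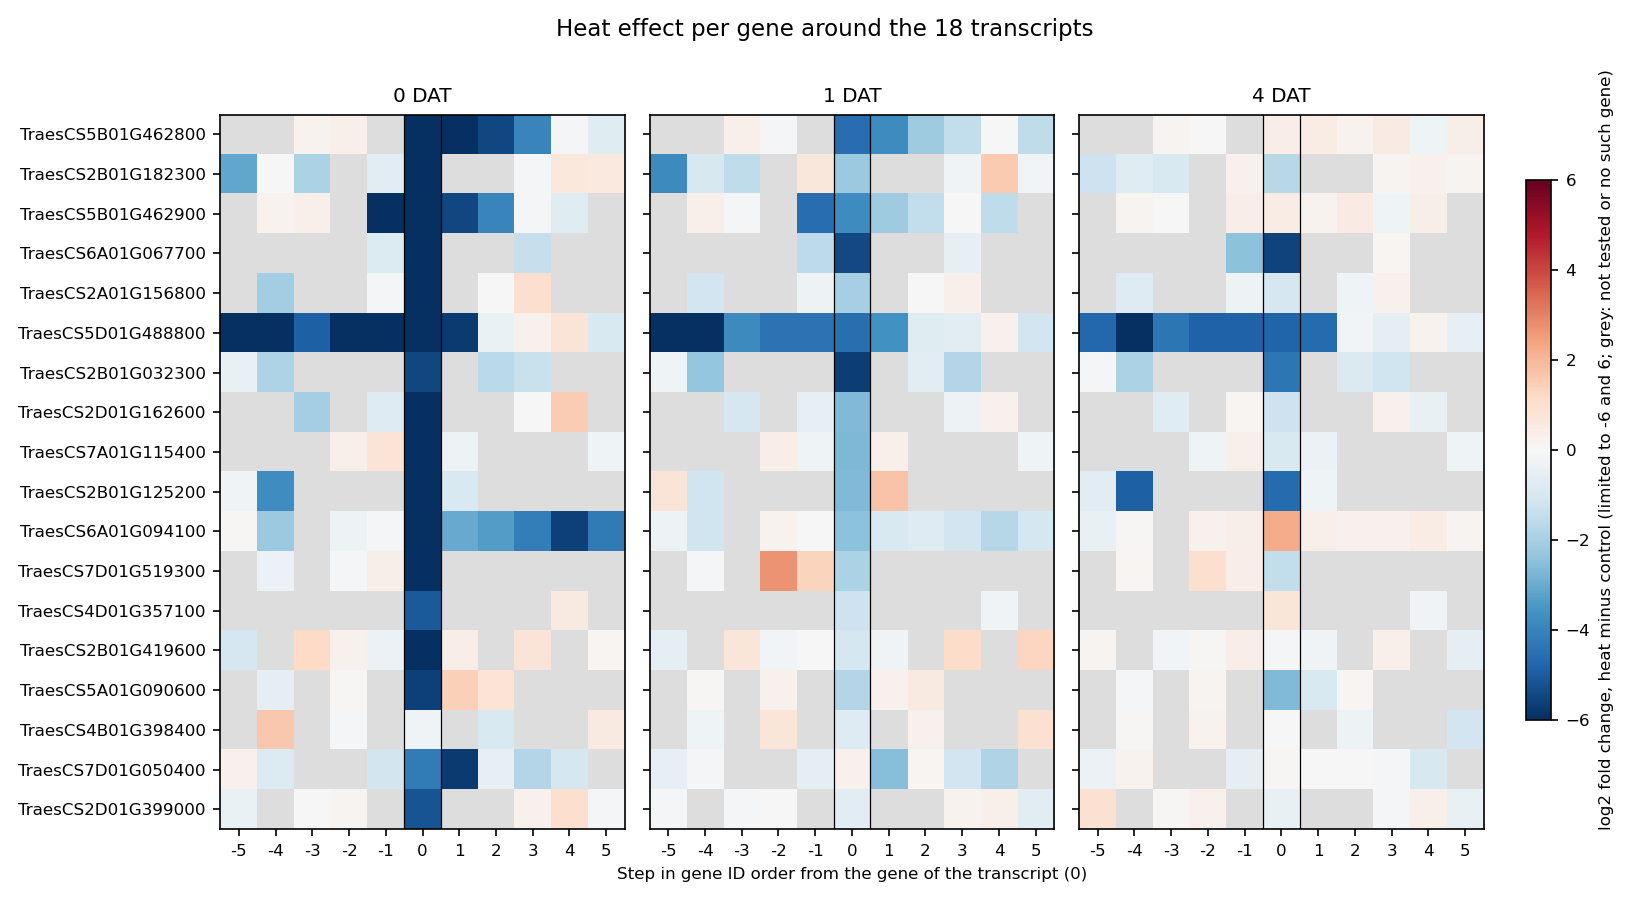
Log2 fold change of heat against control per gene (colour, limited to -6 and 6, grey where not tested or where the ID does not exist) for the genes of the 18 transcripts at step 0 and the genes up to 5 steps before and after them in ID order (horizontal axis), at 0, 1 and 4 DAT. The row of TraesCS5D01G488800 stays blue from step -5 to step 1 on all 3 days, while the blue steps 1 to 5 of TraesCS6A01G094100 at 0 DAT are pale at 4 DAT.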

How the data were processed

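Leaf RNA was sequenced as paired-end libraries, 24 in all, in 6 groups of treatment and day with 4 replicates each, grouped by their labels. Values are estimated counts of reads for each transcript, as deposited by the authors, not scaled to depth. The submitters' processing notes name Trimmomatic and kallisto. Their versions and the transcript index are not given in the sources used here. Estimated counts under 0.001 were set to 0. Levels are CPM on library totals, which were 5403461 to 16112270, and intervals cover no sharing of reads between copies.

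For tests, estimated counts were rounded to whole numbers and analysed in R 4.3.3 with edgeR 4.0.16 (filterByExpr, TMM factors, quasi-likelihood test, two-sided, Benjamini-Hochberg adjustment over 54517 transcripts, call at an adjusted p under 0.05), with 1 model over all 24 libraries. The same was done for counts summed per gene. SE was obtained from the fold change and the F statistic and is approximate. The edgeR model of the study was described for small RNA only. The scripts were tested on simulated data. Alternatives were DESeq2 1.42.0, the likelihood ratio test, other scaling, filters and rules, left-out libraries and blocks.

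The 18 members and all lists were chosen with earlier results of these data known. Transcripts were named by a rule: the 10 with the highest control mean at 0 DAT, the 5 lowest and 5 highest called and not overlapping at 1 and 4 DAT, the 5 with the most expressed other transcript, the run of neighbours and those nearest each limit. TraesCS6A01G094100.1, TraesCS7D01G519300.1, TraesCS2B01G419600.1 and the neighbouring genes were named after their values were seen.

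By the study's methods the same plants were sampled on all days, so a block for the pool of plants was fitted to the contrasts of 4 against 1 DAT. Deviations of same-numbered libraries of a treatment between days correlated at -0.321 to 0.198. The study's methods name a completely randomized layout of 4 biological replicates. Beyond that and the pooling, how replicates were kept apart is not described. The p-values rest on the spread between these libraries, estimated in 1 model over the 6 groups.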

Additional observations from a re-analysis of the deposited data

Results flagged for a closer look

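In 12 of 105 groups of 4 libraries with any count, the highest library stood apart from the other 3 by Dixon's criterion. Its rate of about 5% holds for normal values and for either end, and is no measure for this count. A group with 3 libraries at 0 meets the criterion whatever its highest value, and the rule had used the groups of 0 DAT. In heat 4 DAT replicate 4, TraesCS5B01G462800.1 had 54.6 CPM (others 6.71 to 10.7 CPM) and TraesCS5B01G462900.1 had 50.5 CPM (others 5.97 to 7.42 CPM). In control 4 DAT replicate 2, TraesCS2B01G125200.2 had 45.1 CPM (others 3.61 to 6.09 CPM). Both libraries were among the 4 with over 1% of counts in TraesCS1A01G000100.1, whose part in these values was not tested. In control 0 DAT replicate 3, TraesCS2B01G182300.1 had 22.7 CPM (others 15.5 to 16.4 CPM). At 1 DAT in heat, TraesCS2B01G125200.2 had 1.19 CPM in replicate 2 (others 0.514 to 0.551 CPM) and TraesCS4B01G398400.3 had 3.58 CPM in replicate 4 (others 1.33 to 1.62 CPM).

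The other 6 were levels of a few counts against libraries at or near 0. In heat at 0 DAT these were TraesCS5B01G462900.1 with 0.513 CPM and TraesCS6A01G067700.1 with 0.132 CPM in replicate 4, TraesCS7A01G115400.1 with 0.197 CPM in replicate 1, TraesCS2B01G125200.2 with 0.473 CPM in replicate 3 and TraesCS7D01G050400.2 with 0.401 CPM in replicate 2. In heat at 4 DAT, TraesCS5D01G488800.2 had 0.75 CPM in replicate 3 and 0 in the others.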

How the results depend on the processing

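At 1 DAT the count of 13 called transcripts was 10 to 14 without 1 library, 3 of 3 with a stricter rule (at least 8 CPM in control, under 0.1 CPM in heat) and 31 of 60 with a looser one (2 and 0.4 CPM). Without 1 library, 2200 to 3196 of all 56629 to 57002 tested transcripts were lower at 1 DAT. With only the libraries compared, TraesCS5B01G462800.1, TraesCS5B01G462900.1 and TraesCS2A01G156800.2 lost their calls at 1 DAT. In that fit 1274 of all 43850 tested transcripts were lower. The 5 calls at 4 DAT became 0 to 5 without 1 library, 0 with only the libraries compared, 0 without the 4 libraries with much TraesCS1A01G000100.1, 1 of 3 with the stricter and 8 of 60 with the looser rule. Over all tested transcripts, 0 of 41740 were lower with only the libraries compared and 1 of 61524 without the 4 libraries. Without 1 library, 6 to 43 of all 56818 to 56984 tested transcripts were lower at 4 DAT. Within heat, 2 calls became 5 with DESeq2, 5 with the likelihood ratio test and 1 without the 4 libraries. In that last fit 307 of all 61524 tested transcripts were higher. For the difference of the heat effect, 0 became 5 with DESeq2, 5 with the likelihood ratio test and 0 to 2 without 1 library.

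Without 1 library the median log2 fold change was -2.50 to -2.10 at 1 DAT and -1.21 to -0.83 at 4 DAT, the lowest without heat 4 DAT replicate 4. The classes of recovery held, in their order above, 2 to 3, 13 to 15, 1 to 3 and 0 at 1 DAT, and 1 to 2, 6 to 10, 5 to 8 and 1 to 2 at 4 DAT. The sign turned in transcripts that were not called. At 4 DAT, TraesCS5B01G462800.1 and TraesCS5B01G462900.1 were at -1.47 and -1.62 without the 4 libraries, and at -1.20 to 1.19 and -1.23 to 1.25 without 1 library. TraesCS2B01G419600.1 was at -0.53 to 0.18 and TraesCS4B01G398400.3 at -0.40 to 0.018. TraesCS7D01G050400.2 was at -0.36 to 0.54 without 1 library and -0.083 without the 4 at 1 DAT, and at -0.29 to 0.79 without 1 library at 4 DAT. The cause was not tested.

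Heat and control libraries share a replicate number, but were not taken as paired, which required a correlation over 0.1 in every pair of the same number: correlations of their deviations were 0.0619 to 0.288 at 1 DAT and 0.0989 to 0.263 at 4 DAT, and 7 and 8 of 8 libraries correlated best with their own number. Those of different numbers correlated at -0.28 to 0.0881 at 1 DAT and at -0.155 to 0.0657 at 4 DAT. The main tests therefore left out a pairing that these days partly showed. With the number as a replicate block, 13 were called at 1 DAT and 4 at 4 DAT, without TraesCS2B01G032300.2 (adjusted p = 0.0798), and TraesCS7D01G050400.2 was at -0.34 at 4 DAT. In that fit 3013 and 27 of all 54517 tested transcripts were called lower at 1 and 4 DAT. The block for pools of plants changed no call between 4 and 1 DAT. With it, 808 of all 54517 tested transcripts were higher and 1417 lower at 4 than at 1 DAT within heat. Total counts in place of TMM moved the median of all transcripts by 0.51 (log2) at 0 DAT and by -0.15 for the difference of the heat effect.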
